A study of Mus musculus with 15 samples.

Results

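Tbxt+ and Sox2+ cells sorted after 48 h of culture in the same medium were compared by RNA sequencing. They make up 4 of the 15 libraries of the series, 2 labelled for each sorted reporter, and were chosen by those labels. All cells came from the mouse embryonic stem cell line STR-KI, with the genotype Sox2::mCherry/WT, Tbxt::GFP/WT, so that 1 allele of each gene carries a fluorescent reporter. Neuromesodermal progenitors (NMPs) were made by giving the cells FGF2 at 10 ng/mL for 48 h, then adding CHIR at 5 µM for 24 h. CHIR activates the WNT pathway. NMPs positive for both reporters gave 3 libraries. After another 48 h in FGF with CHIR, cells positive for GFP (here Tbxt 48 h cells) or mCherry (Sox2 48 h cells) were sorted. For a later time, cells grown for 7 d from each sort were used: 3 libraries from the Tbxt sort kept in FGF/CHIR and negative for both reporters, and 2 from the Sox2 sort kept in FGF alone and still mCherry-positive. The labels give no factor doses after replating and no gate limits, and the titles of the 48 h sorts do not name the other reporter. The labels do not say whether both sorts shared a culture, or whether libraries of a group came from separate cultures. The p-values therefore measure only the spread between these libraries.

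Neuromesodermal progenitors of the caudal embryo carry both the T-box factor Brachyury, encoded by Tbxt, and the HMG-box factor Sox2, and they can form spinal cord or paraxial mesoderm. In the embryo, cells that keep Brachyury and gain Tbx6 enter the presomitic mesoderm, where Notch, WNT and FGF signals run the segmentation clock that times somite formation. Cells that keep Sox2 and gain other SOXB and ZIC factors enter the neural plate. The comparison asks how far the transcriptomes of the cells sorted for each reporter had parted in a shared medium.

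Levels are counts per 1000000 (CPM) for 56092 named genes. A difference is the change in log2(CPM + 1), Tbxt 48 h over Sox2 48 h, ± its standard error (SE), from a limma fit of all 15 libraries. "Higher" and "lower" are used of Tbxt 48 h cells and only for genes with an adjusted p under 0.05 (limma, Benjamini-Hochberg over 12943 tested genes), and "no call" for the rest. These adding-1 differences understate the change of genes with low levels. Genes with at most 3 inferred reads in 1 group are given as levels without a difference, and list medians are also given with such genes set to the floor of 3 reads per library where this moves them. Values are listed with replicate 1 before replicate 2. In these bulk libraries fewer cells of a type and less RNA per cell cannot be told apart.

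The sorted genes matched the labels in all 4 libraries. Tbxt, listed in the table under its older symbol T, was at 222 and 216 CPM in the Tbxt libraries and 32.1 and 29.3 CPM in the Sox2 libraries, a difference of 2.80 ± 0.36. Sox2 was at 34.2 and 38.5 CPM in the Tbxt libraries and 217 and 221 CPM in the Sox2 libraries, a difference of −2.56 ± 0.33. Neither sorted gene was at 0 in the other population. Both differences follow from the sort and are no finding, and no source used here says whether transcripts of the reporter alleles were counted under these genes.

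The inferred depth of the 4 libraries was 3.96 to 9.88 M reads (M, 1000000), and 3 reads were worth 0.304 to 0.757 CPM. Replicates correlated more closely (Pearson r over genes, 0.986 in Tbxt and 0.977 in Sox2 cells) than the group means did (0.959), a description over genes that are not independent. Among genes with a group mean of at least 20 CPM, Sox2 replicate 2 stood apart in 76 that were at least 3-fold above replicate 1, against 2 genes the other way. Of the 76, 54 carry predicted (Gm) symbols, 12 carry pseudogene or related-sequence symbols and 10 are other genes. The related-sequence entry Rn18s-rs5, for ribosomal RNA, was at 1533 and 7907 CPM in the Sox2 libraries and 1601 and 573.5 CPM in the Tbxt libraries. The other 10 include Vegfa, at 20.4 and 156 CPM, and Fn1, at 179 and 762 CPM. In Tbxt cells no gene was at least 3-fold higher in replicate 2, and 5 genes were so in replicate 1. Counts are therefore also given without each library.

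At 48 h the 2 populations differed in 505 of 12943 tested genes (3.9%), with 265 higher (2.05%) and 240 lower (1.85%) in Tbxt cells. The 265 include 10 genes, Tbx6 and Aplnr among them, that entered the test only through the Tbxt 48 h libraries. All 10 were called higher, and these calls are no support. Only 4 genes entered through the Sox2 48 h libraries alone, and 0 of them were called. All counts of called list members below stand beside these shares. The median size of a called difference was 1.46 for higher and 1.48 for lower genes. Of the higher genes 86 exceeded 4-fold, and of the lower genes 51. All 505 had groups that did not overlap, as did 56.5% of all tested genes. The count was 492 without Sox2 replicate 1 (182 higher, 310 lower), 148 without Sox2 replicate 2 (88 and 60), 322 without Tbxt replicate 1 (134 and 188) and 124 without Tbxt replicate 2 (72 and 52). Quantile normalization gave 233 higher and 166 lower genes.

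**Figure D1:**
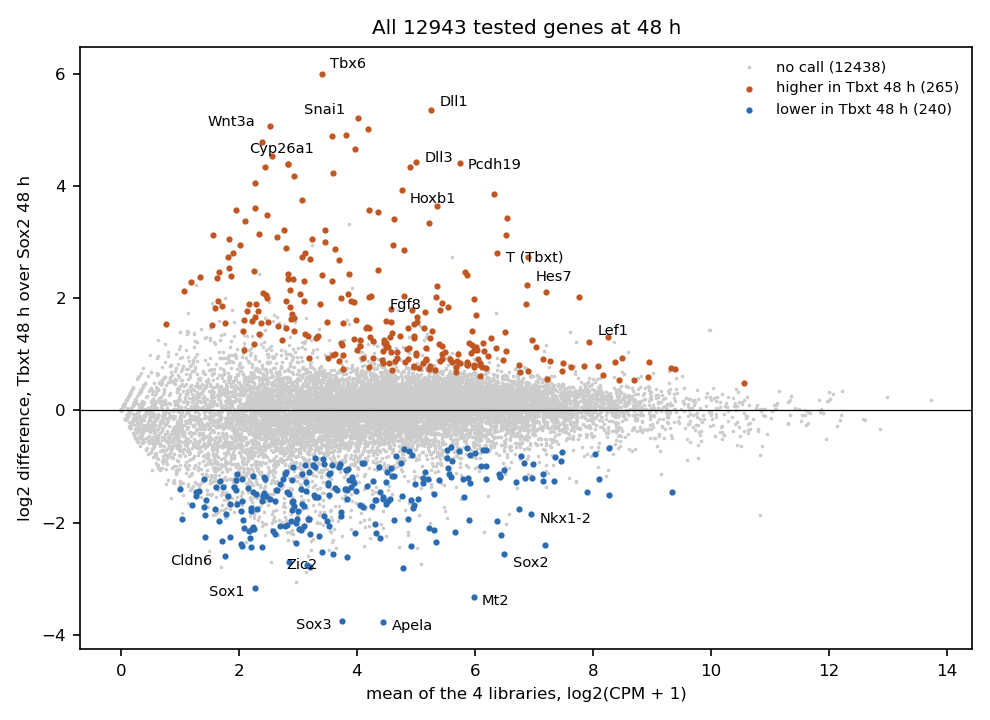
Each point is 1 of 12943 tested genes, with the mean log2(CPM + 1) of the 4 libraries at 48 h on the x axis and the log2 difference, Tbxt 48 h over Sox2 48 h, on the y axis. The 265 higher genes (orange) include Dll1 at 5.35 and the 240 lower genes (blue) include Apela at −3.77, while most genes lie near 0.

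Most tested genes of the presomitic mesoderm list, and several of the Notch list, were higher. Of 19 presomitic mesoderm genes 13 were tested, and 8 were higher and none lower. Tbx6 entered the test only through the Tbxt 48 h libraries, so its call is no support. Without it 7 of 12 were higher, with a median difference of 2.73, against 0.02 over all tested genes. Tbx6, the T-box factor that directs cells to paraxial mesoderm, was at 119 and 57.9 CPM in the Tbxt libraries and 0.757 and 0 CPM in the Sox2 libraries. Tbxt replicate 1 stood above replicate 2, and both stood far above the Sox2 libraries. Msgn1, a basic helix-loop-helix factor of the same tissue, was below the filter, at 6.48 and 3.71 CPM against 0.252 and 0 CPM. Markers of the later, segmenting anterior region were at or near 0: Mesp1, Ripply1 and Ripply2 were listed at 0 in all 4 libraries, and Mesp2 did not exceed 0.757 CPM. The forkhead gene Foxc1 was at 118 and 132 CPM in Tbxt and 17.2 and 19 CPM in Sox2 libraries. Its difference of 2.72 ± 1.03 still had no call (limma adjusted p = 0.188). The spread was estimated over all groups with more than 1 library, those at 7 d included.

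Among the Notch ligands, Dll1, the ligand required for somite patterning, was at 242 and 245 CPM in the Tbxt libraries and 6.06 and 4.11 CPM in the Sox2 libraries, a difference of 5.35 ± 0.48 (limma adjusted p = 7.21e-05). Its paralog Dll3, which acts inside the signal-sending cell, was at 173 and 126 against 6.31 and 5.49 CPM (4.43 ± 0.45). Both delta genes were thus low in each Sox2 library and high in each Tbxt library. Jag2, a ligand of the other family, went the opposite way at 1.72 and 1.01 against 5.05 and 5.03 CPM (−1.37 ± 0.29), and Jag1 had no call at 31.8 and 44.2 against 33.1 and 35.2 CPM. Of the receptors, Notch1 was higher, at 139 and 127 against 26.5 and 20.3 CPM (2.47 ± 0.27), and Notch2 (0.20 ± 0.29) and Notch3 (−0.38 ± 0.22) had no call. Lfng, the glycosyltransferase that modifies Notch and cycles with the clock, was at 24.0 and 17.9 against 2.02 and 2.51 CPM (2.74 ± 0.30). It was the single higher gene of 9 modifiers, while the other fringe genes Mfng (−0.84 ± 0.45) and Rfng (−0.43 ± 0.23) had no call.

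Target genes of the pathway differed among themselves. Hes7, the repressor at the core of the clock, was at 272 and 242 CPM in the Tbxt libraries and 57.3 and 50.3 CPM in the Sox2 libraries, a difference of 2.24 ± 0.33 (limma adjusted p = 0.00183). The feedback inhibitor Nrarp was at 95.4 and 63.3 against 27.0 and 17.6 CPM (1.79 ± 0.38), and the groups did not overlap. Hes1, a target in many tissues, was at 116 and 86.7 CPM in Tbxt and 243 and 186 CPM in Sox2 libraries with no call (−1.08 ± 0.49), so its values leaned the opposite way from those of Hes7. Hes5 (0.85 ± 0.34), Hey1 (0.72 ± 0.26) and Hey2 (1.35 ± 0.44) had no call. None of the 4 nuclear effectors had one, with Rbpj, the DNA-binding partner of Notch, at 49.2 and 62.3 against 48.5 and 48.5 CPM. In all, 6 of 26 tested Notch genes were higher and 1 lower, with a median of 0.28.

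Of the 8 presomitic mesoderm genes, 7 kept the call without each library in turn. The exception, Tbx6, kept it without either Sox2 library and fell below the filter without either Tbxt library, where it was not tested. Of the 6 higher Notch genes, Dll1, Dll3, Hes7, Lfng and Notch1 kept the call in each case, and the Nrarp call ended without Sox2 replicate 2, Tbxt replicate 1 or Tbxt replicate 2 (adjusted p = 0.223, 0.109 and 0.0782). Over all alternatives, the adjusted p of Nrarp ranged from 0.000451 to 1. The Jag2 call ended without any of Sox2 replicate 1, Sox2 replicate 2 and Tbxt replicate 2.

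The promoters of 3 higher genes of Notch modification and feedback are shown because these genes moved together and are known as Notch-responsive genes, for which RBPJ is the DNA-binding partner. The letters are RefSeq promoters of GRCm38.p6 on the plus strand, up to the first annotated exon of each gene, and capitals mark matches to the motifs searched.
Lfng, chr5:140607091-140607319: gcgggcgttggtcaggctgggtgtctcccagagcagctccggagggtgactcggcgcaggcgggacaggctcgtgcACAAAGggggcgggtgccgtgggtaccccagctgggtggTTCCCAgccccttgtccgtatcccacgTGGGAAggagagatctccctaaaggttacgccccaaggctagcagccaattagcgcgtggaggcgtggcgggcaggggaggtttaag
Hes7, chr11:69120203-69120403: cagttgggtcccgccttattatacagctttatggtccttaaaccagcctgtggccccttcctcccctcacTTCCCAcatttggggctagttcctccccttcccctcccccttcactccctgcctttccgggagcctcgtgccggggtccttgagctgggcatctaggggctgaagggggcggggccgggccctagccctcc
Nrarp, chr2:25180508-25180757: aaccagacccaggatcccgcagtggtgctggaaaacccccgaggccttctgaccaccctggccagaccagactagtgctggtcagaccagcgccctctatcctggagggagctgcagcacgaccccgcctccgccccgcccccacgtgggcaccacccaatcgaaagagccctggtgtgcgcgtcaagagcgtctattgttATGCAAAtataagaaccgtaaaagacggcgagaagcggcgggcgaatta
The search covered 250 bases before each RefSeq start on both strands for TGGGAA (RBPJ), CTTTGA (LEF/TCF), TCACAC (T-box), ACAAAG (SOX), TTTGCAT (POU) and CAGGTG (an E-box). The LEF/TCF and SOX motifs share the letters CAAAG, and matches of different motifs may overlap at their ends. For these 3 genes only matches within the printed bases are listed, which number 229 for Lfng, 201 for Hes7 and 250 for Nrarp. Counted from the RefSeq start, Lfng held TGGGAA or its reverse complement at 135 and 108 bases before it and ACAAAG at 174. In its printed bases Hes7 held the RBPJ letters once, at 180 bases. Nrarp held the POU letters at 49 bases and none of the RBPJ letters. The table had promoters for 196 of the higher and 165 of the lower genes. The RBPJ letters were in 21.5% of 261 promoters of higher genes, 20.3% of 232 of lower genes and 20% of 11806 of all tested genes, so the shares lay close together. For the T-box letters the shares were 8.05%, 10.3% and 9.11%. For LEF/TCF they were 10.7%, 7.33% and 10.1%, for SOX 15.7%, 14.7% and 11.9%, for POU 3.07%, 3.45% and 3.08%, and for the E-box 11.5%, 19.4% and 14.8%. These are descriptions of letters, not of binding.

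WNT signalling genes were split between a few large differences and many small ones. Wnt3a, the ligand that maintains the caudal progenitor zone, was at 40.5 and 26.2 CPM in the Tbxt libraries, was listed at 0 in both Sox2 libraries and was at 69.2 ± 4.93 CPM (SD, n = 3) in NMPs. The non-canonical ligands Wnt5a (121 and 109 against 132 and 107 CPM) and Wnt5b (53.7 and 47.1 against 46.4 and 44.8 CPM) had no call, and Wnt3a was the single called gene of 8 tested ligands. The groups of Wnt5a and of Wnt5b lay close together, although Wnt5a was higher and Wnt5b lower than in NMPs in both populations, at 24.9 ± 3.79 and 111 ± 2.06 CPM. Rspo3, a secreted enhancer of WNT signals, was at 322 and 288 against 27.5 and 27.2 CPM (3.43 ± 0.34, limma adjusted p = 0.000128).

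Of 29 tested WNT effectors, receptors and targets, 5 were higher and none lower, with a median of 0.28 (0.21 with genes near the floor at their bound). Lef1, the nuclear partner of beta-catenin, was at 363 and 386 CPM in the Tbxt libraries and 168 and 153 CPM in the Sox2 libraries, a difference of 1.22 ± 0.17 (limma adjusted p = 0.00161). It alone of the 5 nuclear effectors was called. The secreted antagonists Dkk1 (91.5 and 65.5 against 1.77 and 2.51 CPM, 4.65 ± 1.07) and Frzb (59.0 and 97.2 against 0.757 and 2.74 CPM, 4.90 ± 0.84) were higher, as were the frizzled receptors Fzd1 (1.38 ± 0.26) and Fzd7 (1.79 ± 0.36). Other targets and feedback genes had no call. Axin2 was at 153 and 165 against 156 and 168 CPM, Sp5 at 106 and 121 against 61.8 and 85.3 CPM, and the differences of Nkd1 (0.46 ± 0.70) and Notum (−0.35 ± 1.30) were within their standard errors. Of the 5 higher genes, 3 kept the call without Sox2 replicate 1, 2 without Sox2 replicate 2, 4 without Tbxt replicate 1 and 1 without Tbxt replicate 2, and Lef1 kept it in each case.

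Of 9 tested FGF ligand genes 5 were higher and 4 had no call, and none of the 4 receptor and 10 feedback genes was called. Fgf15 was at 23.4 and 16.5 CPM in the Tbxt libraries and 0.757 and 1.83 CPM in the Sox2 libraries, a difference of 3.21 ± 0.31 (limma adjusted p = 8.14e-05). Fgf3 was at 16.3 and 9.96 against 0.757 and 0 CPM, and Fgf4 was at 10.3 and 5.74 CPM and listed at 0 in both Sox2 libraries. Fgf8, the main ligand of the caudal signalling gradient, was at 123 and 52.5 against 24.2 and 14.9 CPM (2.03 ± 0.43), so that replicates of either sort differed widely but did not overlap, and it was at 229.8 ± 48.7 CPM in NMPs. Fgf9 was at 59.7 and 73.8 against 7.57 and 8 CPM (2.94 ± 0.70) and at 1.49 ± 0.2 CPM in NMPs. Fgf17 had no call (0.48 ± 0.39). The receptor Fgfr1 was at 111 and 123 against 93.9 and 70.9 CPM (0.51 ± 0.18, adjusted p = 0.145). Of the feedback inhibitors and targets, Dusp6 (0.16 ± 1.11), Spry2 (−0.20 ± 0.28), Spry4 (1.18 ± 0.78) and Etv4 (−0.94 ± 0.48) had no call. Without the libraries in turn, 4 of the 5 calls held without Sox2 replicate 1, 2 without Sox2 replicate 2, 2 without Tbxt replicate 1 and 4 without Tbxt replicate 2, and Fgf3 and Fgf15 held in each case.

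In the retinoic acid pathway the differences lay in breakdown and binding. Cyp26a1, the enzyme that clears retinoic acid from the tail bud, was at 67.0 and 61.3 CPM in the Tbxt libraries and 1.26 and 1.14 CPM in the Sox2 libraries, a difference of 4.89 ± 0.24 (limma adjusted p = 5.28e-07). Crabp1, a cytoplasmic binding protein, was at 158 and 113 against 5.55 and 5.71 CPM (4.34 ± 0.44), and its paralog Crabp2 had no call (−0.61 ± 0.47). These 2 genes, of 14 tested, kept the call without each library in turn. Aldh1a2, which makes retinoic acid in somites, was below the filter at 5.47 and 3.71 CPM against 0.505 and 0.914 CPM, and Rdh10, which makes its precursor, had no call at 19.3 and 28.9 against 48.7 and 39.5 CPM. The receptors Rara (0.27 ± 0.21) and Rarg (−1.10 ± 0.41) had none either.

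Of 21 tested epithelial genes 10 were lower, and the gene of the repressor Snai1 was higher. Snai1, which drives loss of epithelial junctions at gastrulation, was at 109 and 87.1 CPM in the Tbxt libraries and 1.51 and 1.83 CPM in the Sox2 libraries, a difference of 5.20 ± 0.28 (limma adjusted p = 7.07e-07). It was the single called gene of 10 in its list: Snai2 (0.46 ± 0.58), Zeb1 (0.45 ± 0.35), Zeb2 (0.45 ± 0.25) and Twist1 (−1.50 ± 0.41) had no call. The mesenchymal filament gene Vim had no call at 417 and 353 against 699 and 1028 CPM, with the higher values in the Sox2 libraries.

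None of the epithelial genes was higher, and their median was −0.82 (−0.66 with genes near the floor at their bound). Epcam, an adhesion molecule of epithelia, was at 1.82 and 1.86 CPM in the Tbxt libraries, 14.9 and 9.83 CPM in the Sox2 libraries and 99.3 ± 6.65 CPM in NMPs, a difference of −2.21 ± 0.33 (limma adjusted p = 0.00231). Cdh1, which encodes E-cadherin, was at 0.506 and 0 against 6.81 and 3.43 CPM, with 84.0 ± 13.9 CPM in NMPs. For both genes the NMP libraries stood above either sorted population. The tight junction gene Cldn6 was at 0.405 and 0.338 against 8.08 and 6.63 CPM, Cldn3 at 0.607 and 0.338 against 8.33 and 4.8 CPM and Cldn4 at 1.42 and 0.338 against 10.9 and 6.40 CPM. The keratin genes Krt8 (−1.09 ± 0.27) and Krt18 (−2.16 ± 0.40), whose products pair in simple epithelia, and the protease inhibitor gene Spint2 (−1.54 ± 0.29) were lower as well. The abundant junction genes Tjp1 (49.7 and 63.5 against 58.1 and 52.6 CPM) and F11r (84.0 and 105 against 84.1 and 74.3 CPM) overlapped between the groups. Of the 10 calls, 4 held without Sox2 replicate 1, 5 without Sox2 replicate 2, 8 without Tbxt replicate 1 and 2 without Tbxt replicate 2, and those of Cldn6 and Epcam held in each case.

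Other cadherins did not follow Cdh1. Cdh2, which encodes N-cadherin, had no call at 130.3 and 134 against 94.6 and 105 CPM (0.40 ± 0.21). Pcdh19, a protocadherin, was at 212 and 284 against 10.1 and 11.2 CPM (4.40 ± 0.34, limma adjusted p = 2.91e-05) and was the single called gene of 12 tested cadherins. Pcdh8, the protocadherin known from segmenting mesoderm, did not exceed 0.506 CPM in any of the 4 libraries.

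Neural progenitor genes were lower in 6 of 26 tested members and higher in none, with a median of −0.66. Sox3, the X-linked partner of Sox2, was at 3.95 and 1.69 CPM in the Tbxt libraries and 44.7 and 51.7 CPM in the Sox2 libraries, a difference of −3.75 ± 0.31 (limma adjusted p = 3.03e-05). Sox1, the SOXB1 gene that opens with the neural plate, was at 1.21 and 0.169 against 14.9 and 12.1 CPM (−3.17 ± 0.36), and NMPs held 2.19 ± 0.554 CPM. The POU factor gene Pou3f2 was at 2.63 and 2.36 against 19.7 and 27.2 CPM (−2.79 ± 0.33), and NMPs held 1.47 ± 0.316 CPM. For Sox1 and Pou3f2 the Sox2 libraries stood above NMPs, while for Sox3 the Tbxt libraries stood below them, at 26.8 ± 5.61 CPM.

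The zinc finger genes Zic2 and Zic5, which lie side by side on chromosome 14, were both lower. Zic2 was at 2.94 and 5.23 against 27.8 and 28.8 CPM (−2.56 ± 0.31) and Zic5 at 2.28 and 2.62 against 20.8 and 23.5 CPM (−2.75 ± 0.30). Their family member Zic1 had no call at 74.3 and 129 against 192 and 182 CPM (−0.93 ± 0.39), with the higher values in the Sox2 libraries. Ncam1, a neural adhesion molecule, was lower at 100.2 and 83.7 against 231 and 209 CPM (−1.25 ± 0.27), and it was above NMPs, at 53.7 ± 9.56 CPM, in all 4 libraries. The SOXC genes Sox11 (0.67 ± 0.45) and Sox4 (0.29 ± 0.39) had no call, with Sox11 at 585 and 732 against 421 and 401 CPM. Of the 6 calls, that of Ncam1 ended without any of the 4 libraries, and the other 5 held in each case.

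Later neural genes showed no call. Pax6, of the neural tube, did not exceed 1.32 CPM, and Olig2 and Dbx1 were listed at 0 in all 4 libraries. Dcx, Neurog1 and Neurod4 of neurons were listed at 0 as well. Not all such genes were silent. Nkx6-1, a neural progenitor gene, was at 35.43 and 63.79 CPM in Tbxt and 14.89 and 53.03 CPM in Sox2 libraries. Its NMP level was 8.86 ± 3.23 CPM. The 48 h groups of Nkx6-1 overlapped (0.73 ± 0.81). None of 10 tested neuronal genes was called, with a summed level of 82.3 and 94.3 CPM in Sox2 and 53.5 and 55.9 CPM in Tbxt libraries. None of 10 tested neural crest genes was called, with differences from −1.84 to 0.75. The 12 genes of that list summed to 302 and 267 CPM in Sox2 and 112 and 110 CPM in Tbxt libraries. Its highest value was 197 CPM, while Sox10 and Olig3 were listed at 0.

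**Figure D2:**
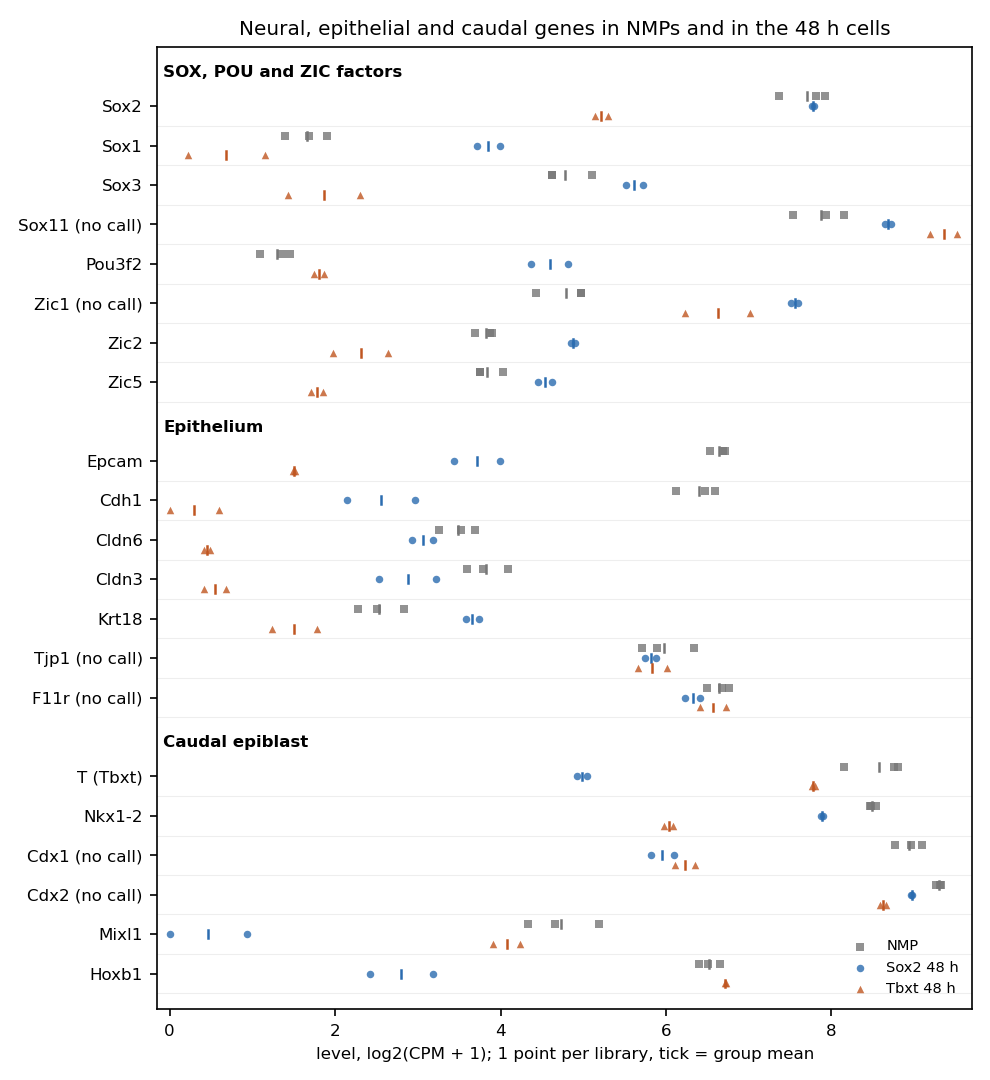
Levels of 21 neural, epithelial and caudal genes on a log2(CPM + 1) x axis, drawn as in the plot of signalling genes. Sox1 and Pou3f2 are higher in Sox2 48 h cells than in NMPs and Tbxt 48 h cells, while Epcam and Cdh1 are highest in NMPs.

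Caudal epiblast genes, the signature of the starting cells, divided between the populations. Of 20 tested genes 4 were higher and 2 lower, with a median of 0.32. The homeobox gene Mixl1 was at 14.1 and 17.9 CPM in the Tbxt libraries and 0 and 0.914 CPM in the Sox2 libraries, and Wnt3a, Fgf8 and Cyp26a1 were the other 3 higher members. Nkx1-2, a homeobox gene of NMPs, was lower, at 62.0 and 67.0 against 238 and 234 CPM (−1.86 ± 0.30, limma adjusted p = 0.00424), and a pseudocount of 0.25 CPM ended this call. The RNA-binding gene Lin28a was at 224 and 179 against 342 and 345 CPM (−0.77 ± 0.17). The caudal genes Cdx1 (68.0 and 80.8 against 55.3 and 67.2 CPM), Cdx2 (384 and 402 against 504 and 499.6 CPM) and Cdx4 (68.6 and 44.7 against 28.0 and 16.9 CPM) had no call, and Cdx1 lay below its NMP level of 492 ± 54.2 CPM in all 4 libraries. Of the 4 higher genes, 3 kept the call without Sox2 replicate 2 and 3 without Tbxt replicate 1, the exception being Fgf8 in each case. The Lin28a call ended without Sox2 replicate 1, Sox2 replicate 2 or Tbxt replicate 2.

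Of 15 tested pluripotency genes 1 was lower and none higher. Pou5f1, the core factor of the pluripotent state, was at 0.658 and 0.675 CPM in Tbxt and 2.65 and 3.43 CPM in Sox2 libraries, against 123 ± 29.9 CPM in NMPs, and had no call at 48 h. Dnmt3b, a DNA methyltransferase gene, had no call at 81.8 and 94.3 against 70.9 and 74.7 CPM. Utf1 was the lower gene, at 0.101 and 0 against 3.28 and 2.74 CPM, and its call ended without any of the 4 libraries.

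Among Hox genes, which pattern the body axis in the order of their paralog number, 1 of 37 tested was called. Over all tested genes 3.9% were called. Hoxb1, the most 3′ gene of its cluster, was at 104 and 104 CPM in the Tbxt libraries and 8.08 and 4.34 CPM in the Sox2 libraries, a difference of 3.92 ± 0.42 (limma adjusted p = 0.000171). NMPs held 91.0 ± 8.03 CPM, so the Tbxt libraries lay near the NMP level and the Sox2 libraries far under it. The median difference was 0.46 over 12 genes of paralogs 1 to 4, −0.23 over 14 genes of paralogs 5 to 9 and −0.77 over 11 genes of paralogs 10 to 13 (−0.47 with genes near the floor at their bound). In that last set Hoxc10 was at 137 and 79.4 against 196 and 214 CPM (−0.97 ± 0.41, adjusted p = 0.223), and the summed level of its 12 members was 184 and 124 CPM in Tbxt and 269.9 and 287 CPM in Sox2 libraries. No gene of paralogs 5 to 13 was called, and the trend over paralogs was not tested.

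**Figure D3:**
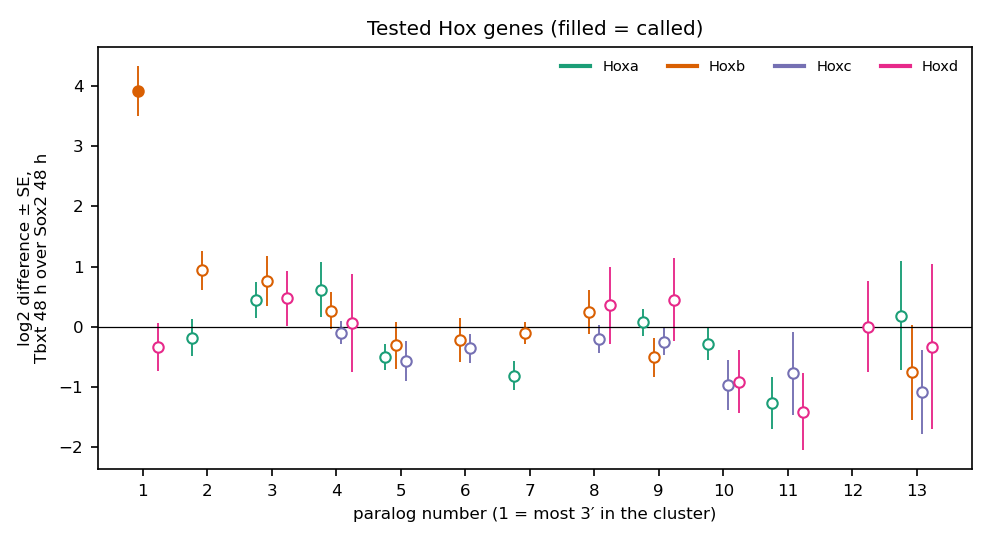
The log2 difference ± SE of single tested Hox genes, Tbxt 48 h over Sox2 48 h, by paralog number and cluster (colour). Hoxb1 alone is filled as called, at 3.92, with Hoxb2 at 0.94 and Hoxd11 at −1.41 among the open points.

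Genes of cell surface signalling and migration included some of the largest differences. S1pr3, a receptor for sphingosine-1-phosphate, was at 31.3 and 22.3 CPM in the Tbxt libraries, was listed at 0 in both Sox2 libraries and was at 0.189 ± 0.115 CPM in NMPs. The chemokine receptor gene Cxcr4 was at 209 and 242 against 49.8 and 71.3 CPM (1.90 ± 0.27, limma adjusted p = 0.00159). Apela, a peptide hormone gene, was at 5.92 and 4.05 CPM in the Tbxt libraries and 84.8 and 74.6 CPM in the Sox2 libraries (−3.77 ± 0.25). Aplnr, which encodes its receptor, was at 22.4 and 13.7 CPM in the Tbxt and 1.26 and 0.229 CPM in the Sox2 libraries, and since it entered the test only through the Tbxt 48 h libraries its call is no support. Apela in Sox2 cells lay near its NMP level of 91.9 ± 15 CPM, and Aplnr in Tbxt cells lay above its NMP level of 3.70 ± 1.04 CPM. The other apelin ligand gene, Apln, had no call (−0.56 ± 0.31). Aplnr was not tested without either Tbxt library, where it fell below the filter, and the other 3 calls held without each library in turn.

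Of 36 tested ephrin and guidance genes, 5 were higher and 3 lower. Efna1, an ephrin, was at 119 and 113 against 31.0 and 38.9 CPM (1.71 ± 0.24) and Plxna2, a semaphorin receptor gene, at 104 and 134 against 11 and 10.5 CPM (3.34 ± 0.58). The repellent gene Sema3a was lower at 14.4 and 17.6 against 58.7 and 52.1 CPM (−1.74 ± 0.25), with 5.81 ± 0.438 CPM in NMPs, and its neighbour on chromosome 5, Sema3e, was lower too at 7.24 and 9.62 against 42.2 and 40.9 CPM. Efnb2 was lower at 8.30 and 12.7 against 29.5 and 26.3 CPM (−1.36 ± 0.29). Of the 5 higher genes, 2 kept the call without Sox2 replicate 1, 1 without Sox2 replicate 2, 2 without Tbxt replicate 1 and 1 without Tbxt replicate 2. Of the 3 lower genes the counts were 1, 1, 1 and 2. Efna1 and Sema3a kept the call in each case.

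In hedgehog and PDGF signalling, Gli2, a transcription factor of the hedgehog pathway, was at 2.43 and 1.35 CPM in the Tbxt libraries and 17.4 and 17.4 CPM in the Sox2 libraries, a difference of −2.70 ± 0.26 (limma adjusted p = 7.81e-05). Its relatives Gli1 (−0.98 ± 0.83) and Gli3 (−1.13 ± 0.31) and the receptor Ptch1 (0.49 ± 0.22) had no call. The ligand gene Pdgfa was lower (−1.22 ± 0.24) and its receptor gene Pdgfra had no call (1.34 ± 0.38). Gas1, a hedgehog co-receptor gene, was higher (0.77 ± 0.18), so that of 13 tested genes 1 was higher and 2 lower, and the Gas1 call ended without any of the 4 libraries. Of the 2 lower genes, Gli2 kept the call without each library, and that of Pdgfa ended in each case. Of 25 tested BMP and TGFb genes 1 was called, a share near the 3.9% called over all tested genes. This gene, the BMP-responsive Id3, was lower at 81.2 and 82.7 against 176 and 207 CPM (−1.21 ± 0.26). Its call ended without Sox2 replicate 2 or either Tbxt library.

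Matrix genes were called in both directions. The basement membrane genes Col4a1 (1.21 ± 0.25), Col4a2 (0.99 ± 0.23) and Lama1 (1.03 ± 0.26) and the integrin gene Itgb5 (0.85 ± 0.21) were higher, and Sparc (−1.19 ± 0.24) and Itga3 (−1.23 ± 0.31) were lower, of 26 tested. None of these 6 calls held without each library in turn: 1 of the 4 higher held without Sox2 replicate 1 and none of them without any other, and of the 2 lower 1 held without Tbxt replicate 1.

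The counts of general cell programmes stand beside 3.9% called over all tested genes. Of 21 tested proliferation genes, 1 was higher: the cyclin gene Ccnd2, at 832 and 899 against 541 and 503 CPM (0.73 ± 0.16), a call that ended without any of the 4 libraries. The proliferation marker Mki67 (0.72 ± 0.34) and the DNA clamp gene Pcna (0.10 ± 0.20) had no call. Of 17 tested p53 targets, 4 were lower (Trp53inp1, Sesn2, Phlda3 and Plk2), with a median of −0.48, and the classical targets Cdkn1a (−0.36 ± 0.35) and Mdm2 (−0.48 ± 0.22) had no call. The 4 calls became 1 without either Sox2 library, 2 without Tbxt replicate 1 and 1 without Tbxt replicate 2. In glucose metabolism the transporter gene Slc2a1 was lower at 155 and 209.9 against 377 and 471 CPM (−1.22 ± 0.23), with 859 ± 98.0 CPM in NMPs, and the enzyme gene Hk1 was lower (−1.24 ± 0.25), of 17 tested. The Slc2a1 call ended without Sox2 replicate 2 or Tbxt replicate 1, and the Hk1 call ended without any of the 4. The imprinted gene Phlda2 was higher at 289 and 330.3 against 49.0 and 42.5 CPM (2.73 ± 0.46), and its call ended without Sox2 replicate 2 or Tbxt replicate 2. Grb10, also imprinted, was higher too (0.62 ± 0.14), the other of 2 calls among 13 tested, and its call ended without Sox2 replicate 2 or either Tbxt library. In the list of further T-box and SOX genes Sox12 was lower (−1.21 ± 0.25), 1 of 12 tested, and in the list of immediate early and stress genes Fosl1 was lower (−1.80 ± 0.39), 1 of 12. The call of Sox12 ended without Sox2 replicate 2 or Tbxt replicate 2, and that of Fosl1 without Sox2 replicate 2 or either Tbxt library.

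Several of the largest differences lay outside the signalling lists. Rnf213, which encodes a large ubiquitin ligase, was at 96.1 and 109 CPM in the Tbxt libraries and 3.28 and 1.37 CPM in the Sox2 libraries, a difference of 5.02 ± 0.43 (limma adjusted p = 3.65e-05). The other 6 tested genes of the interferon list had no call. Lmo2, a LIM-domain gene known from blood, was at 257 and 357 against 22.7 and 17.6 CPM (3.86 ± 0.37). Arg1, an arginase, was at 31.6 and 23.5 against 0.505 and 0 CPM. Cited1, a transcriptional co-regulator gene, was at 321 and 227 against 31.6 and 28.8 CPM (3.12 ± 0.36). Reads of Sprr2a1 and Sprr2a2, near-identical neighbours, may be split between them, and each was at 36.1 and 27.5 CPM in Tbxt libraries, 0.568 and 0.533 CPM in Sox2 libraries and about 92 CPM in NMPs.

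On the lower side, the metallothionein gene Mt2 was at 22.8 and 15.7 against 153 and 259 CPM (−3.33 ± 0.38, limma adjusted p = 0.000594), and NMPs held 504 ± 115 CPM. Chd3, a chromatin remodeller gene, was at 12.2 and 7.09 against 61.7 and 82.5 CPM (−2.81 ± 0.23), with 16.5 ± 0.766 CPM in NMPs. For Mt2 both populations lay below NMPs, while for Chd3 the Sox2 libraries alone lay above them. Podxl, a sialomucin gene, was at 3.44 and 3.38 against 24.5 and 24.2 CPM (−2.52 ± 0.23) and Fgfbp3, an FGF-binding protein gene, at 9.31 and 15.5 against 58.8 and 81.4 CPM (−2.43 ± 0.26). Selenop, a selenium carrier gene, was at 10.8 and 26.2 against 93.4 and 87.1 CPM (−2.35 ± 0.29) and NMPs held 16.6 ± 1.37 CPM. Its call ended in the fit of the 2 groups alone. The amino acid transporter gene Slc7a7 (−2.62 ± 0.38) and Igfbp2 (−2.22 ± 0.32) were lower in all 4 single-library omissions as well. The calcium-binding gene S100a6 was at 74.3 and 52.7 against 161 and 689.8 CPM, with the Sox2 replicates far apart, and its call ended without either Tbxt library and under 4 other alternatives.

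Predicted and pseudogene symbols were seldom called higher. Of 1094 tested predicted (Gm) genes 2 were higher and 21 lower (0.183% and 1.92%), and of 252 tested pseudogene or related-sequence symbols none was higher and 8 were lower (3.17%). Of 11332 tested genes with other symbols, Rik symbols also left out, 2.29% were higher and 1.84% lower. The lower share of predicted genes thus lay near that of other genes. The summed share of CPM was 6.23, 6.66, 5.86 and 5.29% for predicted and 3.01, 3.66, 2.73 and 2.43% for pseudogene symbols, in the order Sox2 replicate 1, Sox2 replicate 2, Tbxt replicate 1 and Tbxt replicate 2. Both shares were highest in Sox2 replicate 2. The part of this library in these calls was not tested. Of the 240 lower genes 18 had Sox2 replicates at least 2-fold apart, against 3 of the 265 higher genes.

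Called genes that sit next to each other were also listed, using RefSeq gene order of GRCm38.p6 and the 12237 tested genes that matched a RefSeq symbol. Among 12215 adjacent pairs of tested genes, both were higher in 21, both lower in 9 and opposite in 3. The pairs held the FGF ligand genes Fgf3, Fgf4 and Fgf15 in a row on chromosome 7, the collagen genes Col4a1 and Col4a2, the claudins Cldn3 and Cldn4, the keratins Krt8 and Krt18, the metallothioneins Mt1 and Mt2 and the Zic2 and Zic5 pair. No test was made of these counts.

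Markers of other cell types were low. Endoderm markers summed to 2.27 and 2.51 CPM in Sox2 and 4.76 and 6.58 CPM in Tbxt libraries over 11 genes, 5 of them listed at 0 in all 4. The single call, Foxa2, was at 1.92 and 1.86 against 0 and 0 CPM and ended without any of the 4 libraries. Notochord markers summed to 10.3 and 9.83 CPM in Sox2 and 10.4 and 8.78 CPM in Tbxt libraries over 6 genes, Foxa2 included, and Noto and Shh did not exceed 0.338 CPM. Of 12 endothelial and blood markers, the single call was Lmo2, the list's sum was 43.4 and 36.7 CPM in Sox2 and 278 and 391 CPM in Tbxt libraries, and the defining genes Kdr, Etv2, Tal1, Pecam1, Cdh5 and Gata1 did not exceed 1.6 CPM. Lateral plate markers summed to 16.0 to 18.6 CPM over 13 genes, somite derivatives to 1.35 to 4.29 CPM over 10, intermediate mesoderm to 3.20 to 7.26 CPM over 6 and surface ectoderm to 8.11 to 14 CPM over 6, with no call in any of these lists.

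The levels of NMPs place the 48 h differences against the starting cells, although these comparisons share libraries with the one above. Against NMPs 2376 genes (18.4%) differed in Tbxt 48 h cells, 7.82% of those tested being higher and 10.5% lower. In Sox2 48 h cells 1025 genes (7.92%) differed from NMPs, 2.65% of those tested being higher and 5.27% lower. Lfng differed from NMPs by 3.63 ± 0.28 in Tbxt and 0.89 ± 0.28 in Sox2 cells, Pcdh19 by 4.49 ± 0.31 and 0.08 ± 0.31, and Cited1 by 3.25 ± 0.33 and 0.13 ± 0.33: the Tbxt value was called and the Sox2 value was not. Hoxb1 (0.20 ± 0.38 and −3.72 ± 0.38) and Fgf15 (−0.22 ± 0.28 and −3.43 ± 0.28) showed the reverse, with a fall in Sox2 cells. Sox1 (−0.97 ± 0.33 and 2.19 ± 0.33) and Pou3f2 (0.51 ± 0.30 and 3.30 ± 0.30) rose in Sox2 cells, and Gli2 (−2.89 ± 0.24 and −0.19 ± 0.24) fell in Tbxt cells. Cyp26a1 rose in Tbxt (1.37 ± 0.22) and fell in Sox2 cells (−3.51 ± 0.22), and Dll3 did the same (2.10 ± 0.41 and −2.33 ± 0.41). Zic2 fell in Tbxt (−1.51 ± 0.29) and rose in Sox2 cells (1.05 ± 0.29).

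The same genes were then read in the 7 d derivatives. Their libraries are not among the 4 compared at 48 h, but they entered the same fit. They took part in the filter and the spread estimate behind the 48 h calls, so this reading is not independent of those calls. Tbxt-derived double-negative cells in FGF/CHIR were compared with Sox2-derived Sox2+ cells in FGF, so the effects of medium, gate and sorted source cannot be told apart. In this comparison 21.1% of tested genes were higher and 26.5% lower in the Tbxt-derived cells. Of the 265 genes higher at 48 h, 101 (38.1%) were higher and 68 (25.7%) lower at 7 d, and the 101 are 3.7% of the genes higher at 7 d. Of the 240 genes lower at 48 h, 120 (50%) were lower and 49 (20.4%) higher, and the 120 are 3.5% of the genes lower at 7 d. The 7 d group from the Sox2 sort includes a library of 0.799 M inferred reads, in which 3 reads were worth 3.76 CPM.

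Genes called at 48 h went several ways at 7 d. Snai1 was at 69.0, 91.9 and 99.0 CPM in the Tbxt-derived and 11 and 8.76 CPM in the Sox2-derived libraries, and it was still higher (3.0 ± 0.25, limma adjusted p = 1.39e-06). Pcdh19 (2.86 ± 0.31), Lef1 (1.03 ± 0.16) and S1pr3 (4.59 ± 0.36) were also higher. For 4 of the 8 presomitic mesoderm genes the order had turned. Dll1 was at 2.33, 0.396 and 0.263 CPM in the Tbxt-derived and 35.7 and 78.9 CPM in the Sox2-derived libraries, and it was lower (−4.91 ± 0.44). Dll3 (−3.40 ± 0.41), Lfng (−2.68 ± 0.28) and Cited1 (−4.05 ± 0.33) were lower too. Of the other 4, Pcdh19 is given above, Hes7 (−0.16 ± 0.30) and Rspo3 (0.49 ± 0.31) had no call, and Tbx6 did not exceed 0.291 CPM in any of these 5 libraries.

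Hoxb1 and Cxcr4, higher at 48 h, were lower at 7 d. Hoxb1 was at 0.291, 0 and 0.527 CPM in the Tbxt-derived and 20.2 and 6.26 CPM in the Sox2-derived libraries. Cxcr4 was at 0.582, 0.594 and 0.263 CPM and 58.3 and 101 CPM in the same order. The neural gene Sox1 was listed at 0 in all 3 Tbxt-derived libraries and was at 112 and 179 CPM in the Sox2-derived ones. Sox3 (−5.41 ± 0.28), Zic5 (−3.41 ± 0.28), Epcam (−4.90 ± 0.30) and Krt18 (−5.76 ± 0.36) were lower at both times, and Cldn6 was listed at 0 in the Tbxt-derived libraries and was at 58.2 and 27.5 CPM in the others. The reverse turn was seen for Gli2, which was lower at 48 h and higher at 7 d, at 89.4, 131 and 141 CPM against 26.8 and 35.1 CPM (1.91 ± 0.24). Sema3a (2.25 ± 0.23) and Chd3 (3.27 ± 0.21) also went from lower to higher.

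**Figure D4:**
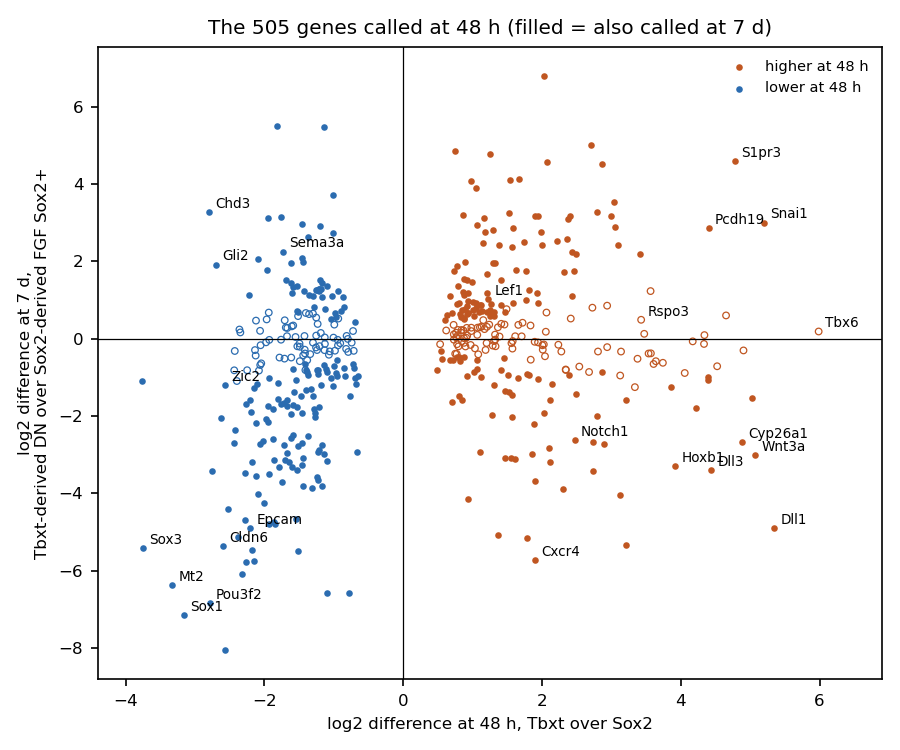
The 505 genes called at 48 h, with the log2 difference at 48 h on the x axis and the log2 difference at 7 d, Tbxt-derived over Sox2-derived cells, on the y axis, filled where called at 7 d. Snai1, Pcdh19 and S1pr3 lie in the upper right, Dll1 and Dll3 in the lower right, and Sox1, Sox3 and Epcam in the lower left.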

How the data were processed

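RNA from 15 libraries in 8 groups was measured. Per the labels' protocols, libraries were made with oligo-dT priming, molecular identifiers and tagmentation. STAR 2.7, SAMtools 1.21 and the genome build GRCm39 are named in the submitters' processing notes. No source used here gives the annotation, how reads were counted, or how molecular identifiers and multiply mapped reads were treated. The authors deposited 1 table of counts per 1000000 (CPM), a unit named in the file headers, with no counts. Each column sums to 1000000 CPM over 78409 rows, of which 21909 without a gene name and 92 spike-ins were left out, and 627 rows sharing 311 symbols were summed, leaving 56092 genes.

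What 1 read is worth was inferred from the smallest step between values. Between 71.1 and 78.7% of nonzero values were then whole numbers of reads within 0.01 reads, so counts could not be recovered. The main fit therefore used no count model, and voom on the inferred reads was run only as an alternative. Depths and read floors are therefore approximate and cover counting error only.

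Genes that reached 5 CPM in 2 or more libraries entered the test, on log2(CPM + 1), with limma 3.58.1 (R 4.3.3; robust, with a mean-variance trend) in 1 fit of all 8 groups with 7 residual degrees of freedom, and p-values were adjusted by the Benjamini-Hochberg method. On simulated data for the comparison of Tbxt 48 h with Sox2 48 h (12976 genes in the step), 79% of 2-fold and 98% of 4-fold changes were recovered, with 4 false calls. Every simulated gene had the same negative binomial dispersion of 0.01, and changes were placed only in genes averaging at least 5 CPM at 48 h. No library was made to stand apart as Sox2 replicate 2 does, so these figures do not give the error rates of the real comparison.

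The genes and the 36 lists were chosen with earlier results of these data known. Named were the sorted genes, then in each direction the 15 largest called changes without overlap and with at least 20 CPM in the higher group (predicted symbols left out), then for each list up to 6 called members with the largest changes and up to 3 members without a call with the highest CPM. Part of these was left out for length, some genes are not reported here, and genes outside the rule were named after their values were seen. Promoters came from RefSeq (GRCm38.p6), a build other than that of the processing notes, so only the table's own coordinates are printed. Figures were drawn with matplotlib 3.10.9. The alternatives are listed with their effects in the closing section.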

Additional observations from a re-analysis of the deposited data

How the results depend on the processing

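Whether the library numbers pair the 48 h samples is not known, since the labels do not say what a number marks. The main fit did not pair them. Deviations from the group means of same-numbered libraries correlated at −0.17 over genes. With 2 libraries per group this value cannot decide whether they shared a culture or day. With the replicate number as a block, 360 genes were called at 48 h (189 higher, 171 lower), and 433 with the numbers of the Sox2 libraries exchanged, a setting chosen after seeing the data. Against 505 calls, array weights gave 1221 (577 higher, 644 lower), a fit of the compared groups alone 1135 (574 and 561) and a required change above 2-fold 57 (43 higher, 14 lower). Leaving out 1 library gave 124 to 492 (72 to 182 higher, 52 to 310 lower). Pseudocounts of 0.25 and 4 CPM, no filter, a filter at 20 CPM, median-of-ratios scaling, quantile normalization and voom on inferred reads gave 399 to 536 calls, and leaving out the shallow 7 d library, also chosen after seeing the data, gave 575. For Tbxt 48 h against NMPs, array weights gave 4834 calls, the 2-fold requirement 206 and single-library omissions 702 to 2069. For Sox2 48 h against NMPs, the filter at 20 CPM gave 668, array weights 3510, the 2-fold requirement 106, the block 680 and single-library omissions 315 to 744. At 7 d the 2-fold requirement gave 1282. Of the 505 genes, 52 (40 higher, 12 lower) were called in every alternative that could test them, Dll1, Snai1, Cyp26a1, Sox3 and Apela among them. The causes of these differences were not tested. DESeq2 and edgeR were not run because counts were not recovered, and genes near 3 reads in 1 group are limited by depth.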
